A study of Mus musculus with 3 samples.

Results

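The receptors of the common gamma chain cytokines were described here as a family of 8 genes across the leukocytes of mouse blood. The members Il2ra, Il2rb, Il2rg, Il7r, Il4ra, Il21r, Il9r and Il15ra were taken by symbol, and each matched 1 of the 19059 genes in the deposited matrices. The data came from peripheral blood of untreated male mice, in 3 droplet single-cell libraries of 1 group, labelled with ages of 8, 9 and 10 weeks and as 1 batch. Erythrocytes were lysed, and the leukocytes were sorted after staining with the DNA dyes DAPI and Draq5, fixed, and counted with the probe-based fixed-RNA kit of 10x Genomics. The labels name no strain and do not say how many animals stand behind a library. Age and library cannot be told apart, and if the libraries are not separate animals the p-values measure only the spread between these samples.

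The family is built around Il2rg, the common gamma chain, which pairs with a private chain to form a signalling receptor. Il2rb is shared by the receptors for IL-2 and IL-15, and Il2ra and Il15ra raise the affinity for these ligands. Il7r, Il4ra, Il21r and Il9r are the ligand-binding chains for IL-7, IL-4, IL-21 and IL-9, and signals run through the kinases JAK1 and JAK3 to STAT factors. Il7r also pairs with Crlf2 in the TSLP receptor, and Il4ra with Il13ra1 in a receptor for IL-4 and IL-13 that has no gamma chain.

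Several members lie beside each other in the genome. In GENCODE's annotation of GRCm38, Il2ra (chromosome 2, 11642807 to 11693193, plus strand) and Il15ra (11705290 to 11734317, plus strand) are separated by 12096 bases. Il4ra (chromosome 7, 125552120 to 125579474, plus strand) and Il21r (125603429 to 125633570, plus strand) are separated by 23954 bases. Neither gap holds a protein-coding gene. Il9r lies on chromosome 11 (32187541 to 32200279), Il7r and Il2rb on chromosome 15 (9505788 to 9530176 and 78479256 to 78495271) and Il2rg on chromosome X (101264378 to 101268255), all on the minus strand. The build behind the deposited counts is not stated, and these positions serve only to place the genes.

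Upstream sequence is shown for Il2ra and Il9r, which were both higher in Foxp3+ than in conventional CD4 T cells, and for Il21r, which was high in B and T cells and low in NK cells. RefSeq promoter windows on GRCm38.p6 matched 7 of the 8 members. The 250 bases before the RefSeq start are printed 5′ to 3′ on the gene's strand, and they lie at chr2:11642542-11642791 (plus strand), chr11:32200280-32200529 (minus strand) and chr7:125603179-125603428 (plus strand). Capitals mark matches on either strand to TGTGGT, a RUNX-type motif, or TGTTTAC, a forkhead-type motif.
Il2ra: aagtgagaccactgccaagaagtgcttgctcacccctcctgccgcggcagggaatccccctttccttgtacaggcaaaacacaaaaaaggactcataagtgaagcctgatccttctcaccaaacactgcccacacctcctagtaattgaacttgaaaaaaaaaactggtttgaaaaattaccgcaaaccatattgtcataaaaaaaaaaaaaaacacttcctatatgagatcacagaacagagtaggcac
Il9r: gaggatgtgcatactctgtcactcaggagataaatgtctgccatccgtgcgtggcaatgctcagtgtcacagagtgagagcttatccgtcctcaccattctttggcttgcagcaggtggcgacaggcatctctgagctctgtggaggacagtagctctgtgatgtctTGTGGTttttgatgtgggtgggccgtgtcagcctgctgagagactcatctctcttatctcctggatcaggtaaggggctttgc
Il21r: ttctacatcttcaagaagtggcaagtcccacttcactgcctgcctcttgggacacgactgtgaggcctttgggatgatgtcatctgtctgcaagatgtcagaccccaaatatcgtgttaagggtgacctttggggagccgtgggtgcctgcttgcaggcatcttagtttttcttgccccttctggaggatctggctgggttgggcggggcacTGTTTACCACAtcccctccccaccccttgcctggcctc
The RUNX-type match starts 83 bases before the start in Il9r. In Il21r it starts 33 bases before the start and overlaps the forkhead-type match, which begins 38 bases before it. Il2ra holds neither. Among 32851 windows of the same length, 14.0% held TGTGGT and 3.17% held TGTTTAC. The STAT-type motif TTCNNNGAA, found in 7.02% of windows, was in none of the 3. Among the members not printed, the Il7r window held a STAT-type match 142 bases before the start. The Il2rg window held a RUNX-type match 227 bases before the start, and the Il4ra and Il15ra windows held no match. These matches describe letters only.

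The libraries held 45718031, 19591648 and 23443660 UMIs (unique molecule counts) and gave 10337, 4935 and 6495 analysed cells. Cells were assigned to classes from raw marker counts, with no member gene in any gate, and 1006 of 21767 barcodes that carried markers of more than 1 lineage were left out. A further 683 T cells and 92 cells of the monocyte and DC lineage fell in no class, and 74 barcodes had no lineage. In all, 19620 barcodes were placed in a leukocyte class. Some genes outside the gates were read as a description of the classes. Levels are in CPM, the usual counts scaled to a common total, from UMIs summed per library and class. Ikzf2 was at 562 to 858 CPM in Foxp3+ CD4 T cells and Gzma at 8404 to 10764 in NK cells. Cd22 was at 918 to 946 CPM in B cells and Spn at 2319 to 2422 in patrolling monocytes. The levels of these genes in other classes are not given here, so the values alone do not check the classes. The neutrophil gene S100a8, at 55840 to 58650 CPM in neutrophils, was at 18.1 to 124 CPM in the other 7 of the 8 classes fitted together. The erythroid marker list ran from 1141 to 30289 CPM in B cells, highest in library 2, and its part in the results was not tested. The library pairs shared 83, 101 and 48 barcodes. Probe counts per gene depend on the probes, so levels are compared between classes and not between genes.

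**Figure D1:**
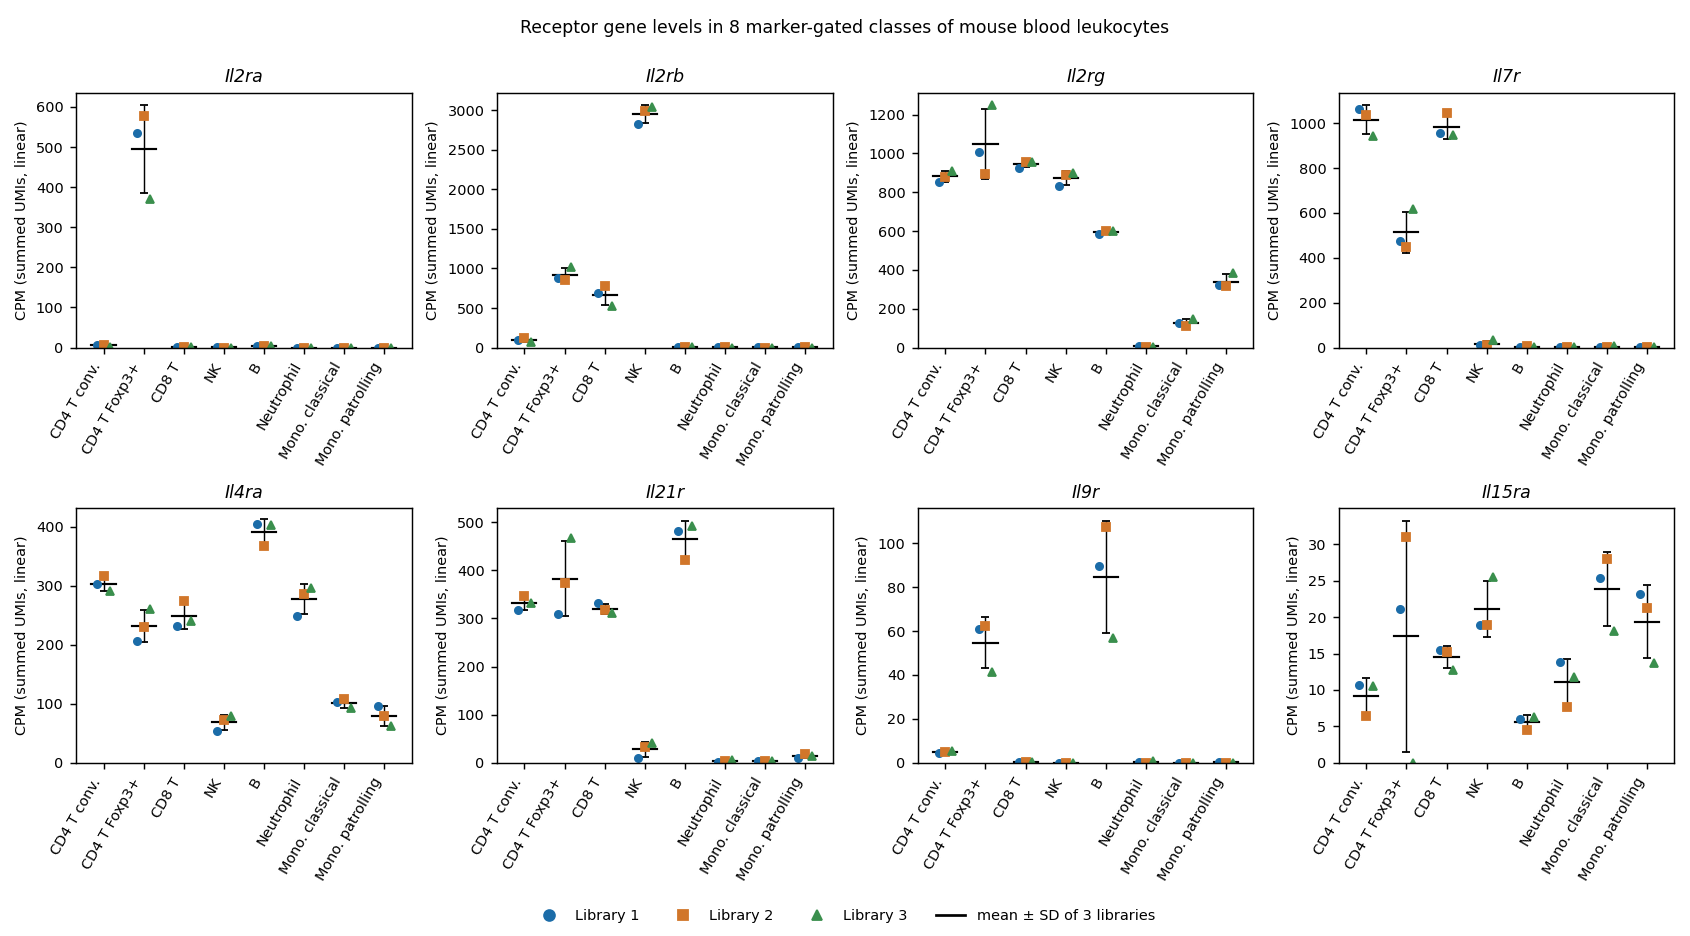
Level of each of the 8 receptor genes in 8 leukocyte classes. The y axes are linear CPM from summed UMIs, points are the 3 libraries, and bars are the mean and SD over them. Il2ra stands at 370 to 578 CPM in Foxp3+ CD4 T cells and under 8 CPM in every other class drawn, and Il2rb is highest in NK cells.

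Il2rg, the shared chain, was present throughout the lymphocytes and nearly missing from neutrophils. Its level was 855, 881 and 910 CPM in conventional CD4 T cells (Cd4 without Foxp3), 927, 957 and 955 in CD8 T cells and 834, 890 and 900 in NK cells of libraries 1, 2 and 3. B cells stood at 585, 598 and 601 CPM, patrolling monocytes at 321, 315 and 383, classical monocytes at 129, 113 and 145 and neutrophils at 8.70, 5.09 and 4.55. These B-cell, monocyte and neutrophil ranges overlapped neither each other nor those of the T and NK cells. Patrolling monocytes exceeded classical ones (log2 fold of Il2rg 1.42, SE 0.10, edgeR adjusted p = 2.59e-18). Neutrophils were below classical monocytes (log2 fold -3.29, SE 0.18, edgeR adjusted p = 1.48e-25), and the log2 fold was -3.91 without library 1. An Il2rg UMI was found in 1.47% ± 0.70 of neutrophils (SD, n = 3), at a median depth of 2762 UMIs per cell, and in 79.7% ± 1.09 of B cells, at a median of 3158. With every cell thinned to 1000 UMIs the shares were 0.540% and 43.1%. Platelet barcodes, which serve as a background at a median of 932 UMIs, had a share of 0.490%.

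Il2ra, the high-affinity chain of the IL-2 receptor, marked Foxp3+ CD4 T cells, the regulatory T cell compartment. Of the 160 Foxp3+ cells, 31 were called on exactly 1 Foxp3 UMI. The level of Il2ra in these 160 cells was 535, 578 and 370 CPM in libraries 1, 2 and 3, against 7.28, 7.21 and 1.97 in 2272 conventional CD4 T cells. The lowest Foxp3+ value exceeded the highest conventional one, and the log2 fold was 6.35 (SE 0.26, edgeR adjusted p = 2.83e-27). An Il2ra UMI was found in 64.2% ± 3.63 of Foxp3+ cells and 0.954% ± 0.65 of conventional CD4 T cells (SD, n = 3), at median depths of 3612 and 3499 UMIs, and in 37.7% and 0.713% after thinning. B cells stood at 3.41, 5.00 and 4.77 CPM. Neutrophils, classical monocytes and patrolling monocytes had no Il2ra UMI. By counting error over the pooled cells, that count of 0 allows a UMI in up to 0.130% of 2305, 0.587% of 511 and 0.486% of 617 cells, which is no limit on the cells that express the gene.

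In Foxp3+ over conventional CD4 T cells, 3 of the 8 members were higher and 2 lower, where 12.8% of the 10241 genes tested were called at an adjusted p below 0.05 (7.36% higher and 5.46% lower). Of all genes called, 57.4% were higher, and 67.4% with DESeq2's size factors. Il2rb, a signalling chain of the same receptor, was at 882, 858 and 1015 CPM in Foxp3+ cells and 96.3, 121 and 64.9 in conventional cells, with no overlap (log2 fold 3.22, SE 0.19, edgeR adjusted p = 9.44e-10). Il9r, the IL-9 receptor chain, was at 61.0, 62.2 and 41.1 against 4.67, 4.80 and 5.25 CPM, again without overlap (log2 fold 3.52, SE 0.36, edgeR adjusted p = 1.70e-11). Of the 2272 conventional cells, 1800 were naive-type in the split described below. The memory-type cells of that split held Il2rb at 1187 and Il9r at 66.7 CPM over all libraries summed, against 891 and 59.1 in Foxp3+ cells. Foxp3+ and memory-type cells were not tested against each other. Il7r, which carries the IL-7 survival signal, was lower, at 476, 447 and 617 against 1065, 1038 and 942 CPM (log2 fold -1.08, SE 0.11, edgeR adjusted p = 5.21e-11). Il4ra was lower (log2 fold -0.47, SE 0.14, edgeR adjusted p = 0.0116), a call lost with DESeq2's size factors (adjusted p = 0.0521), with DESeq2's Wald test (0.0844), without library 1 (0.410) and without library 2 (0.0583). Il2rg (log2 fold 0.20), Il21r (0.08) and Il15ra (1.09) did not pass the test, and Il2rg passed with DESeq2's size factors (adjusted p = 0.0481).

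A list of 22 ligand, signalling, feedback, target and partner genes was read beside the members. Of its 17 genes tested in Foxp3+ over conventional CD4 T cells, 4 were higher and 1 was lower, and the median log2 fold was 0.16 against -0.06 over all genes. Cish and Socs2 encode feedback inhibitors of cytokine signalling. Cish was at 75.1, 93.2 and 82.3 CPM in Foxp3+ cells and 10.5, 12.8 and 11.1 in conventional cells (log2 fold 2.81, SE 0.35, edgeR adjusted p = 4.93e-09). Socs2 had a log2 fold of 3.87 (SE 0.60) on 20 and 17 UMIs. The kinase gene Pim1 (1.21) and Stat5a (0.59) were higher, and the survival gene Bcl2 was lower (log2 fold -0.47). Il2ra and Il2rb were detected together in 52.7% ± 5.14 of Foxp3+ cells and 0.419% ± 0.42 of conventional CD4 T cells (SD, n = 3).

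**Figure D2:**
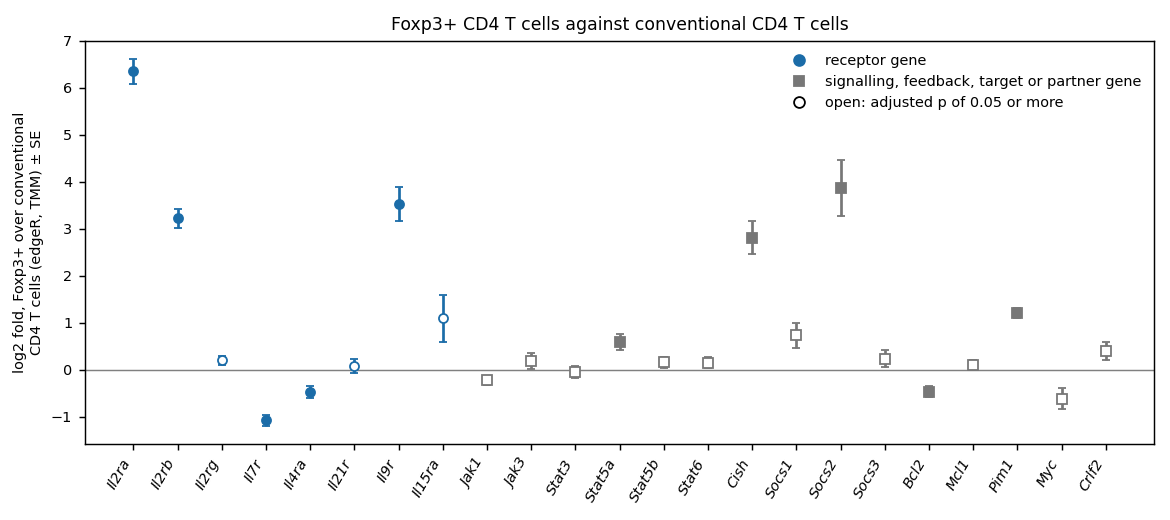
Log2 fold of receptor genes (circles) and of signalling, feedback, target and partner genes (squares) in Foxp3+ over conventional CD4 T cells, from edgeR over 3 libraries with bars of 1 SE. Filled symbols passed an adjusted p of 0.05. Il2ra at 6.35 is the highest point, and Il13ra1 is not drawn because the Foxp3+ cells held no UMI of it.

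Il2rb, the signalling chain for IL-2 and IL-15, was highest in NK cells. Its level there was 2824, 2990 and 3038 CPM in libraries 1, 2 and 3, against 694, 772 and 523 in CD8 T cells and 2.63, 1.96 and 1.32 in B cells, and 99.7% ± 0.44 of NK cells had an Il2rb UMI (SD, n = 3), at a median depth of 3384 UMIs, against 0.641% of B cells. The order over classes was NK, Foxp3+ CD4 T, CD8 T and conventional CD4 T, with no overlap between neighbours, followed by patrolling monocytes, B cells, neutrophils and classical monocytes at 0 to 9.08 CPM with overlapping ranges. CD8 T cells exceeded conventional CD4 T cells (log2 fold 2.84, SE 0.16, edgeR adjusted p = 1.17e-10). That comparison called 1 member higher and 3 lower, where 20.1% of all genes tested were called (11.1% higher and 9.09% lower). The lower members were Il9r (-3.41, SE 0.51, edgeR adjusted p = 2.49e-07), Il2ra (-1.81) and Il4ra (-0.28). Il9r rests on 5 UMIs in CD8 and 39 in conventional CD4 T cells, and Il2ra on 21 and 51. Of those 39 UMIs, 29 lay in the CD4 memory-type cells described below and 4 in the naive-type cells. Without library 1 Il2ra and Il4ra did not pass (edgeR adjusted p = 0.170 and 0.240), nor did Il4ra with DESeq2's Wald test (0.0510). Of 17 pathway genes 5 were higher, with Socs1 (0.98) and Myc (0.89) highest, and 3 lower, with Stat5b (-0.46) and Pim1 (-0.41) lowest.

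NK cells carried less Il7r, Il21r and Il4ra than CD8 T cells. Against CD8 T cells, 1 member was higher and 3 were lower, in a comparison that called 50.7% of all genes tested (23.9% higher and 26.7% lower). Il2rb was higher (log2 fold 2.23, SE 0.13, edgeR adjusted p = 8.81e-11). Il7r was at 11.4, 9.45 and 31.9 CPM in NK cells and 959, 1048 and 947 in CD8 T cells, without overlap (log2 fold -6.13, SE 0.16, edgeR adjusted p = 1.11e-38). Il21r, at 10.6, 32.1 and 41.5 against 332, 317 and 312 CPM, was lower (log2 fold -4.05, SE 0.19), and by -3.08 without library 1, the lowest of the NK values. Il4ra was lower by -1.92 (SE 0.12). Il2rg (-0.04), Il15ra (0.47) and Il2ra (-0.73, on 3 NK UMIs) did not pass. The 4 T-cell markers summed to 16.7 to 35.1 CPM in NK cells, and their part in the remaining Il7r and Il21r was not tested. No Il9r UMI was seen in 887 NK cells, which allows a UMI in up to 0.338% of them and, for a gene this sparsely detected, does not limit the cells that express it. Within NK cells, Klrg1+ against Cd27+ Klrg1- cells gave no call among the 3 members tested, Il2rb, Il2rg and Il4ra (edgeR, where 2.43% of genes were called, 1.23% higher and 1.2% lower). Of the 3, Il2rg alone had an unadjusted p below 0.05 (log2 fold 0.33, SE 0.14, edgeR adjusted p = 0.315), and DESeq2's Wald test called none either. The low-count filter removed the other members. Among them Il7r was at 8.79 against 34.2 summed CPM (16 and 17 UMIs) and Il21r at 15.4 against 34.2 (28 and 17). Il15ra was at 20.9 against 14.1 (38 and 7 UMIs). Of the 17 pathway genes tested in NK over CD8 T cells 6 were higher, among them Crlf2 (0.87) and the kinase gene Pim1 (0.85), and 6 lower, with the feedback gene Socs3 (-2.86) and the growth gene Myc (-1.78) lowest.

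B cells had the highest mean levels of Il4ra, Il21r and Il9r among the 8 classes, with little Il7r and Il2rb. Their ranges of Il21r and Il9r overlapped those of Foxp3+ CD4 T cells, and their range of Il4ra overlapped that of no neighbour. Il21r, the receptor for the T-follicular-helper cytokine IL-21, was at 481, 421 and 493 CPM in B cells and 317, 347 and 332 in conventional CD4 T cells (log2 fold 0.65, SE 0.09, edgeR adjusted p = 1.95e-07). Il4ra, the IL-4 receptor, was at 405, 368 and 404 against 303, 317 and 291 CPM (log2 fold 0.53, SE 0.08, edgeR adjusted p = 2.00e-08). For both genes all B-cell values lay above all CD4 values. Il9r was at 89.5, 108 and 56.8 CPM in B cells, where 13.9% ± 3.74 of cells had a UMI (SD, n = 3; 6.24% after thinning), with library 3 lowest (log2 fold over conventional CD4 T cells 4.29, SE 0.18, edgeR adjusted p = 3.86e-30). Against NK cells, which held no Il9r UMI, B cells were at least 84.2-fold higher, taking 3 counts over the NK cells as the floor. That comparison called 4 members higher (Il2ra, Il4ra, Il21r and Il9r) and 4 lower (Il2rb, Il2rg, Il7r and Il15ra), where 56.4% of genes were called (31.5% higher and 24.9% lower). The Il2ra call rests on 3 NK UMIs, and the ratio of summed CPM was 4.58 (1.54 to 22.5 by exact counting error at 95%). In all, 3 members were higher and 4 lower than in conventional CD4 T cells, where 58.4% of all genes tested were called (31.6% higher and 26.8% lower). Il7r was lower by a log2 fold of -7.64, Il2rb by -5.39 and Il2rg by -0.40. Il15ra, at 6.05, 4.46 and 6.31 against 10.6, 6.40 and 10.5 CPM, had a log2 fold of -0.58 in a call lost with any 1 library left out (adjusted p 0.0504 to 0.359) and under the stricter lineage gate (0.0511). Of 17 pathway genes tested 4 were higher in B cells, with Crlf2 (0.83) and the survival gene Mcl1 (0.74) highest at 10 CPM or more, and 11 were lower, with Cish (-3.77) and Socs3 (-3.22) lowest. Among all genes called in that comparison 54.1% were higher, and 38.4% when plain library totals set the scale.

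Within B cells the members differed by subset. In B-1 or marginal-zone-type cells, called from Cd9, Bhlhe41 and related genes without the follicular gene Fcer2a, Il21r was at 112, 201 and 130 CPM, against 509, 444 and 509 in follicular-type cells. The ranges did not overlap, and the log2 fold was -1.70 (SE 0.13, edgeR adjusted p = 4.96e-14). Il4ra was at 170, 209 and 204 against 415, 383 and 417 CPM (log2 fold -1.04, SE 0.11), and Il2rg was lower by -0.41 (SE 0.09). These were 3 of 4 members tested, where 16.8% of genes were called (9.42% higher and 7.36% lower). Myc (2.13) and Pim1 (1.14) were the highest of 3 pathway genes called higher of 12 tested, and Jak1 (-0.51) was the one called lower. Il9r in the same cells was at 34.7, 138 and 38.7 CPM, and the 3 libraries straddled the follicular range. In transitional-type cells, marked by Cd93, Il9r was at 23.6, 12.3 and 25.1 against 100, 109 and 59.4 CPM (log2 fold -1.93, SE 0.32, edgeR adjusted p = 0.00312). That was the only member called of 4 tested, where 6.87% of genes were called (4.08% higher and 2.79% lower), and with no replicate block its adjusted p was 0.174.

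**Figure D3:**
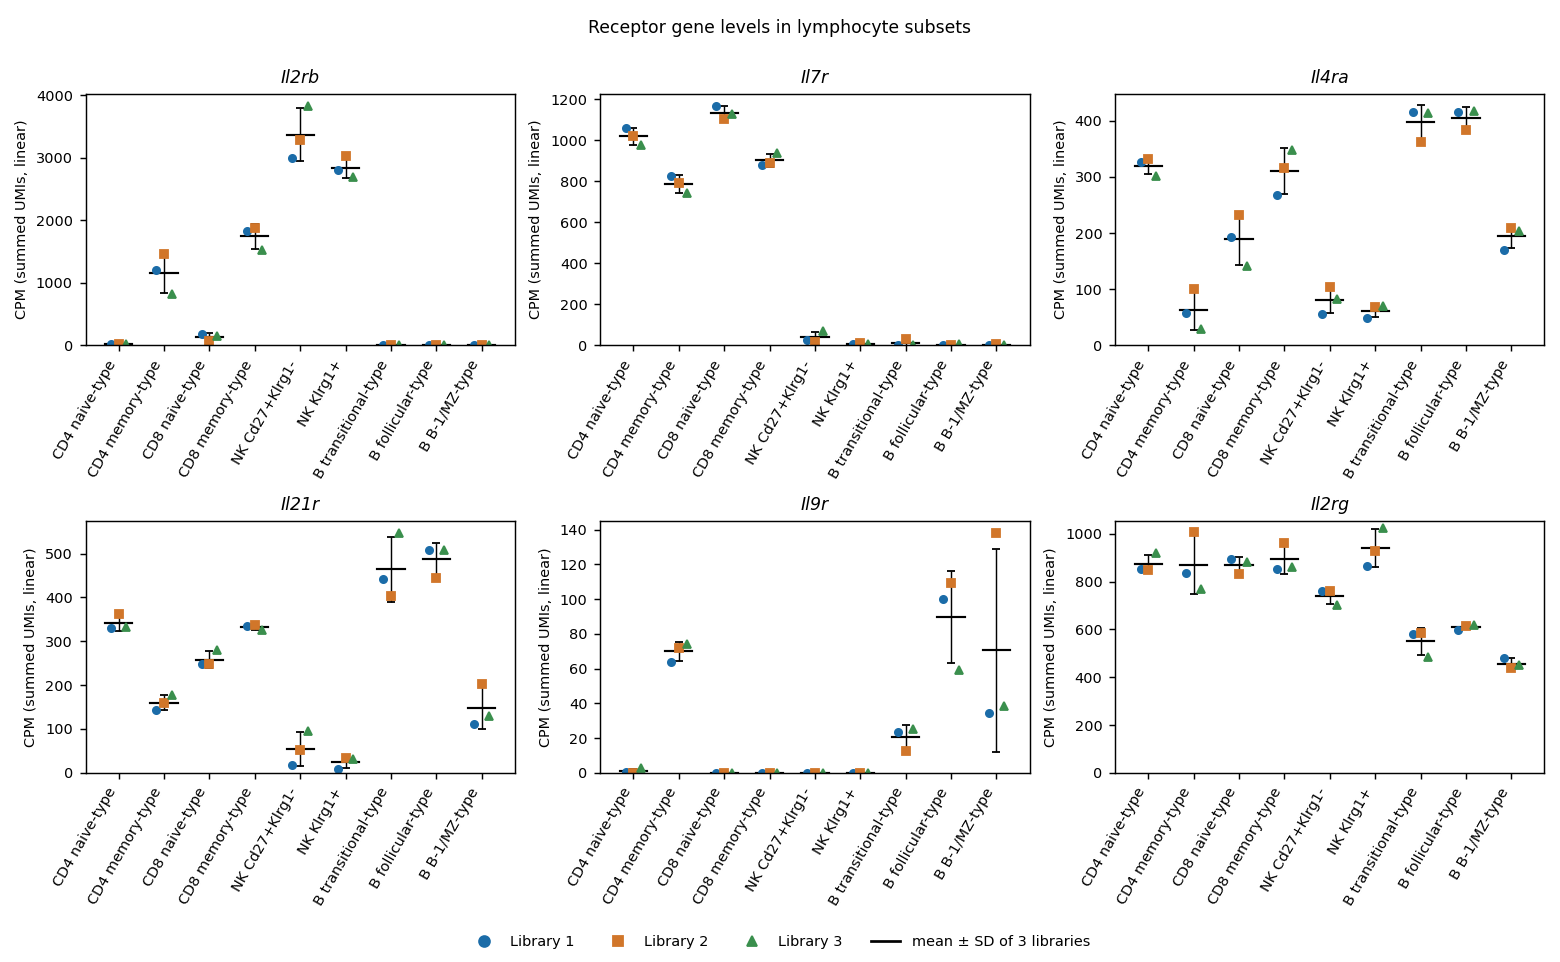
Level of 6 receptor genes in 9 lymphocyte subsets, as linear CPM from summed UMIs with 3 libraries per subset and bars of the mean and SD. Il4ra falls from naive-type to memory-type CD4 T cells and rises between the same CD8 subsets, and Il9r among the T-cell subsets is highest in CD4 memory-type cells.

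T cells split by memory genes differed in several members. Naive-type cells had at least 2 genes of a naive-cell list and at most 1 UMI of the memory list, and memory-type cells at least 2 of Ccl5, Cxcr3, Id2, Itgb1, S100a4 and Nkg7 with more UMIs of these than of the naive genes. In CD4 T cells (102 memory-type, 1800 naive-type), 2 members were higher and 2 lower of 6 tested, where 12.2% of genes were called (6.95% higher and 5.28% lower). Il2rb was at 1204, 1471 and 816 CPM in memory-type and 25.1, 29.9 and 17.1 in naive-type cells (log2 fold 5.61, SE 0.17, edgeR adjusted p = 8.03e-88). Il9r was at 63.7, 72.1 and 74.1 against 0.241, 0 and 2.56 CPM, on 29 and 4 UMIs (log2 fold 6.50, SE 0.77, edgeR adjusted p = 2.12e-13, and 7.89 without library 3). Neither gene's ranges overlapped. The NK markers summed to 13.4, 43.3 and 29.7 CPM in memory-type and 5.31, 3.09 and 3.41 in naive-type CD4 cells, and their part was not tested. Il4ra was lower, at 57.0, 101 and 29.7 against 328, 332 and 302 CPM (log2 fold -2.40, SE 0.26, edgeR adjusted p = 1.09e-15), and so was Il21r, at 144, 159 and 178 against 330, 361 and 332 (log2 fold -1.10, SE 0.20, edgeR adjusted p = 4.13e-06). Il7r (-0.35) and Il2rg (0.01) did not pass. The low-count filter removed Il2ra, on 12 and 34 UMIs (27.6 against 5.41 summed CPM), and Il15ra, on 8 and 62 (18.4 against 9.86). Of 13 pathway genes tested none was higher and 3 were lower: Bcl2 (-1.44), Myc (-1.35) and Jak1 (-0.43). Il2, the gene of the ligand, was at 23.5, 28.8 and 14.8 CPM in memory-type cells on 10 UMIs, and the naive-type cells held 1 UMI.

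In CD8 T cells Il2rb was also higher in memory-type cells, while Il4ra moved the other way than in CD4 cells. Il2rb was at 1827, 1883 and 1521 CPM against 175, 71.6 and 158 in naive-type cells (log2 fold 3.60, SE 0.13, edgeR adjusted p = 1.46e-18). The 6 NK markers, at 7441 to 8387 CPM in NK cells, summed to 94.8, 78.4 and 112 CPM in memory-type and 4.37, 11.0 and 8.11 in naive-type CD8 cells, and their part in the Il2rb difference was not tested. Il4ra was at 268, 316 and 349 against 194, 231 and 142 CPM, without overlap (log2 fold 0.67, SE 0.12, edgeR adjusted p = 3.39e-06). Il21r (0.42) was called higher and Il7r (-0.30) lower, which made 3 members higher and 1 lower of 5 tested, where 18.3% of genes were called (9.51% higher and 8.76% lower). The calls of Il21r and Il7r were lost without library 1 (adjusted p = 0.163 and 0.145), with DESeq2's Wald test (0.432 and 0.153) and with Nkg7 left out of the memory list (0.543 and 0.217). Of 13 pathway genes tested 4 were higher, with Crlf2 (0.85) and Bcl2 (0.63) highest, and 4 lower, with Stat5b (-0.51) and Socs3 (-0.51) lowest. Of all CD8 T cells 69.6% fell in neither subset. Naive-type CD8 cells had a median of 3281 UMIs and memory-type cells 4969, and the part of depth was not tested. With Nkg7 left out of the memory list, naive-type CD8 cells rose from 212, 58 and 82 to 940, 234 and 277 in libraries 1, 2 and 3. No Il9r UMI was seen in 527 memory-type CD8 cells, which allows a UMI in up to 0.569% of them, again no limit on expression. Il2rg (0.05) did not pass. The low-count filter removed Il9r, Il2ra, on 16 UMIs in memory-type and 0 in naive-type cells, and Il15ra, on 69 and 15 (25.9 against 13.5 summed CPM).

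The difference between CD4 and CD8 T cells was tested directly in a fit added after the data were seen. The change from naive-type to memory-type in CD4 minus that in CD8 was -3.06 for Il4ra (SE 0.27, edgeR adjusted p = 3.47e-19), -1.53 for Il21r (SE 0.21, edgeR adjusted p = 1.68e-09) and 2.04 for Il2rb (SE 0.22, edgeR adjusted p = 2.67e-12), as log2 values. Of 6 members tested 1 was called higher and 2 lower, where 6.82% of genes were called (3.28% higher and 3.53% lower). Il7r (-0.03, SE 0.14), Il2rg (-0.05, SE 0.14) and Il9r, which had no UMI in either CD8 subset, did not pass. Il9r passed with DESeq2's Wald test (adjusted p = 0.00343) and, in edgeR, with Nkg7 left out of the memory list (adjusted p = 0.0435). No fold is given for it, because the CD8 subsets held no UMI.

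**Figure D4:**
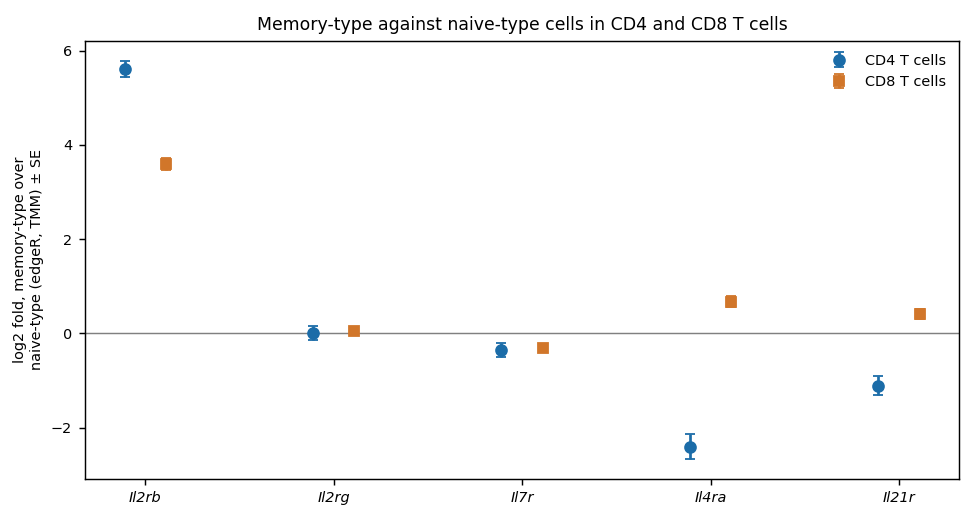
Log2 fold of 5 receptor genes in memory-type over naive-type cells, for CD4 T cells (circles) and CD8 T cells (squares), from edgeR over 3 libraries with bars of 1 SE. Il2rb is above 0 in both, and Il4ra is at -2.40 in CD4 and 0.67 in CD8 T cells.

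Among myeloid cells Il4ra was higher in neutrophils than in classical monocytes. Its level was 249, 286 and 297 CPM in neutrophils against 103, 108 and 92.1 in classical monocytes, with no overlap (log2 fold 2.23, SE 0.10, edgeR adjusted p = 4.28e-29), and 47.9% ± 1.59 of neutrophils had an Il4ra UMI (SD, n = 3), or 23.5% after thinning. In platelet barcodes 3 of 240 had one. The comparison called 1 member higher and 1 lower of 8, where 73.7% of genes were called (33.3% higher and 40.3% lower). With plain library totals the median log2 fold of all genes moved from -0.13 to -0.96 and the share of calls that were higher from 45.2% to 21.1%. The log2 fold of Il4ra was then 1.39 and that of Il2rg -4.12. In the same neutrophils Il13ra1, the other partner of Il4ra, was at 334, 291 and 388 CPM, and at most 1.89 CPM in conventional CD4 T, CD8 T, NK and B cells. Il4ra was detected together with Il13ra1 in 25.2% ± 2.99 of neutrophils and with Il2rg in 1.09% ± 0.35. In B cells the order was the other way, at 0.226% ± 0.07 and 55.6% ± 2.90 (SD, n = 3). Of 17 pathway genes tested, 13 were higher in neutrophils than in classical monocytes and 2 lower, with a median log2 fold of 1.52 against -0.13 over all genes. The feedback gene Socs3 (3.59) and the ligand gene Il15 (2.24) were among the higher ones, and Bcl2 (-0.94) and Myc (-1.95) were lower.

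**Figure D5:**
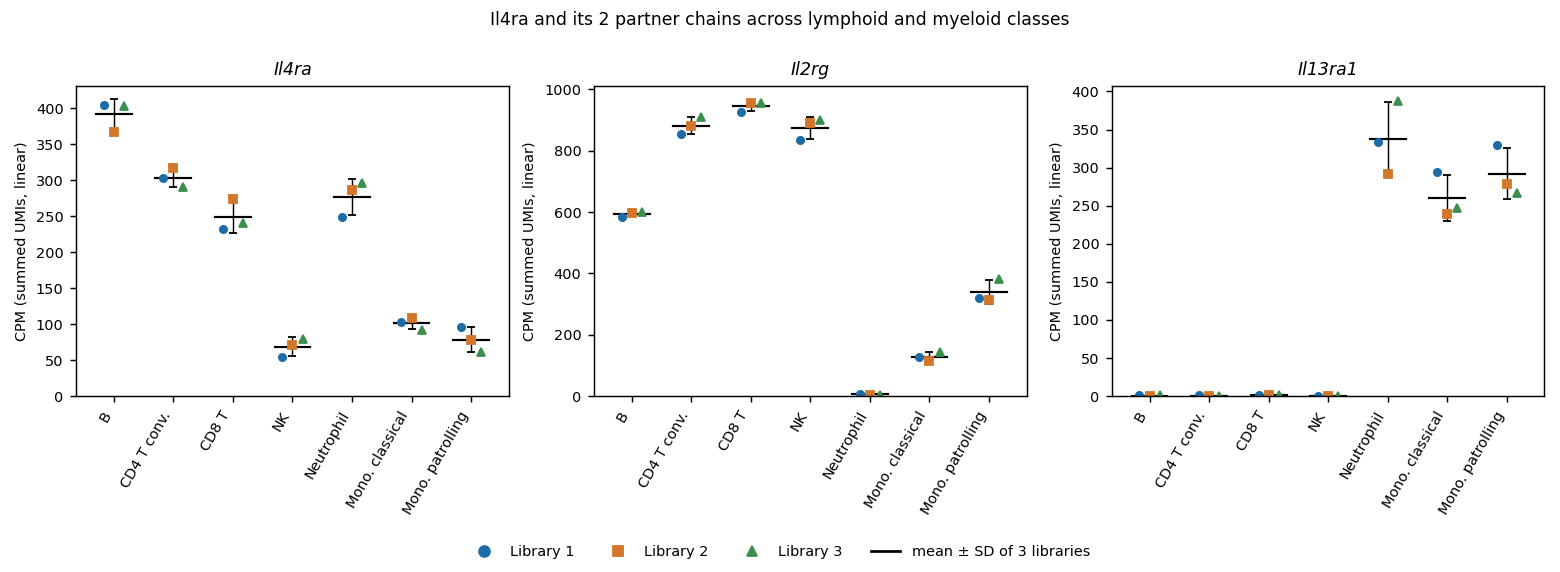
Level of Il4ra and of the genes of its partner chains, Il2rg and Il13ra1, in 7 classes, as linear CPM from summed UMIs with 3 libraries per class and bars of the mean and SD. Neutrophils have Il4ra at 249 to 297 CPM and Il13ra1 at 291 to 388 CPM with Il2rg below 9 CPM, and the lymphocyte classes have Il2rg with Il13ra1 at 0 to 1.89 CPM.

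Patrolling over classical monocytes had 2 members higher and none lower, where 36.8% of genes were called (17.4% higher and 19.4% lower). These were Il2rg, given above, and Il21r at 10.7, 18.2 and 13.7 against 3.56, 3.62 and 2.79 CPM (log2 fold 1.83, SE 0.49, edgeR adjusted p = 0.00291), a call lost under the stricter lineage gate (adjusted p = 0.377). Of 17 pathway genes 7 were higher, with Bcl2 (4.44) and Socs3 (2.30) highest, and 2 lower, Myc (-2.44) and Il15 (-1.28). Il15ra, which presents IL-15 to neighbouring cells, was low in every class, at 0 to 31.1 CPM. Its highest means were in classical monocytes (25.3, 28.0 and 18.1 CPM) and NK cells (18.9, 18.9 and 25.5), and neighbours in its order overlapped except conventional CD4 T cells over B cells. Over the mean of 4 lymphoid against 3 myeloid classes, 5 members were higher in lymphoid cells (Il2ra, Il2rb, Il2rg, Il7r and Il21r) and Il15ra was lower (-1.33, SE 0.15, edgeR adjusted p = 6.89e-12, and -0.69 with plain library totals), where 81.2% of genes were called (44.6% higher and 36.6% lower). The call of Il2ra, which had no UMI in the 3 myeloid classes, was lost without library 1. Il4ra stood at -0.02 (SE 0.06), and its sign turned with plain library totals (0.60), which moved the median of all genes from 0.14 to 0.78 and the share of calls that were higher from 54.9% to 76.3%.

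Rare classes were read in a separate fit, added after the data were seen, that took classes with at least 5 cells in every library. Gamma-delta-type T cells (51 cells, Trdc without Trac) had Il2ra at 123, 0 and 187 CPM, with UMIs in 7 cells, and library 2 had none among 9 cells. Their log2 fold of Il2ra over CD8 T cells was 5.80 (SE 0.64, edgeR adjusted p = 8.89e-10). Ctla4, a regulatory T cell gene, was at 0 in these 51 cells, whose gate already required no Foxp3 UMI. The part of regulatory T cells in the Il2ra level was not tested. Il2rb was at 1244, 2276 and 1237 CPM (log2 fold 1.03, SE 0.19, edgeR adjusted p = 0.00162), and these were the 2 members called of 8, where 2.82% of genes were called (1.58% higher and 1.24% lower). Of all genes called there 56.0% were higher, and 72.1% with DESeq2's size factors. Cish (2.61) was the 1 pathway gene called of 18 tested.

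Basophils (74 cells) had Il7r at 234, 39.1 and 158 CPM, against 3.16, 1.81 and 5.58 in classical monocytes, without overlap (log2 fold 5.73, SE 0.44, edgeR adjusted p = 2.33e-19), and the log2 fold was 4.58 without library 1. These levels rest on 50 Il7r UMIs in basophils and 14 in classical monocytes, and library 2 held 8 basophils. The 4 T-cell markers summed to 10.9, 39.1 and 26.3 CPM in the same basophils, with Cd3e at 0. In library 2 the Il7r level and the marker sum were 1 UMI each. In conventional CD4 T cells the marker sum was 5331 to 5683 CPM and Il7r 942 to 1065 CPM. The part of T-cell RNA in the basophil Il7r level was not tested. Crlf2, the partner of Il7r in the TSLP receptor, was at 277, 195 and 315 CPM there, and Il4, which basophils are known to make, at 331, 469 and 394. Il4ra was lower than in classical monocytes (log2 fold -1.53, SE 0.42, edgeR adjusted p = 0.00198), a call lost without library 1 (log2 fold -2.14, adjusted p = 0.0684), and the comparison called 35.5% of genes (14.2% higher and 21.3% lower), with 1 member in each direction. Conventional DCs (62 cells) held 2 Il15ra UMIs against 108 in classical monocytes, which puts the monocytes 6.52-fold higher in summed CPM (1.76 to 54.6 by exact counting error at 95%). It was the 1 member called, and the call was lost without library 1. That comparison called 24.7% of genes (9.37% higher and 15.3% lower), of which 38.0% were higher, and 60.5% with plain library totals. Plasmacytoid DCs were 9 cells, 5 of which had an Il7r UMI, and no test was made.

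The genes whose levels over the 8 classes were most like each member's were listed as a description, from the Pearson r of log2(CPM + 1) over 8 class means, which share libraries. Il2ra was most like Tmprss13 (r = 0.973) and Lrrc32 (0.967), Il2rb like F2r (0.984) and Abcb1a (0.981), and Il7r like Dzip1 (0.998) and Nsg2 (0.997). Il4ra was most like Treml2 (0.964) and Il16 (0.958), Il21r like Rbm39 (0.993) and Traf3ip3 (0.991), and Il9r like Mrgpre (0.969) and Dusp4 (0.968). For Il2rg they were Hikeshi (0.999) and Htt (0.997), and for Il15ra Ppp1r9b (0.966) and Dctn3 (0.954).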

How the data were processed

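The unit deposited by the authors is raw UMI counts, 1 matrix for each library, from Cell Ranger 7.1.0 per the file headers, and the barcode and feature lists name cells and genes. Genome build and probe set: not given in the sources used here. Barcodes under 200 genes and Scrublet doublets (scanpy 1.11.5) were removed. A lineage needed 2 markers of its list and 3 UMIs. The genes of the naive T-cell list are not reported here. The members and lists were chosen with earlier results of these data known.

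Counts were summed per library and class and tested with edgeR 4.0.16 (robust quasi-likelihood test, TMM, filterByExpr). The library was a block, because the classes of a library come from the same sample. Calls used a Benjamini-Hochberg adjusted p of 0.05 over all genes tested. Classes needed 10 cells in every library. Every member called is named in its comparison. A member not named there either was tested without a call or was removed by the low-count filter, and its absence is no finding of equal levels. Of the 22 pathway genes, most comparisons give the counts and the 2 highest and 2 lowest called folds at 10 CPM or more. The others had these called, higher then lower. Basophils had 9 and 3 of 18 tested, conventional DCs 3 and 10 of 18, and B over NK cells 2 and 9 of 17. Lymphoid over myeloid classes had 6 and 10 of 17, and transitional-type B cells 2 and 1 of 12. The CD4 against CD8 difference had 1 and 3 of 13, and the NK subsets none of 12. The share of all genes called stands with each comparison above. Stat5a, Pim1 in Foxp3+ cells, Myc in the myeloid comparisons, Il2, Il4, Crlf2 in basophils and Il13ra1 were named after their values were seen. Alternatives used DESeq2 1.42.0, other scalings, filters, gates and libraries left out. On simulated counts, 2-fold changes were recovered for 63% of changed genes in the CD4 memory comparison and 99% in CD8 over CD4, and 4-fold changes for 94% and 100%. Of the genes called there, 4.27% and 7.44% were unchanged ones. The changed genes were drawn without those of lowest mean level, and all classes were simulated from 1 mean profile. The recovery therefore does not speak for the sparsest genes. As a check only for a library deposited more than once, library pairs had a chi-square per degree of freedom of 327, 189 and 82.7, differences in cell make-up included.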

Additional observations from a re-analysis of the deposited data

Results flagged for a closer look

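The change from naive-type to memory-type cells differed between CD4 and CD8 T cells for 3 receptor genes, by a test of the difference itself in the edgeR fit. The CD4 change minus the CD8 change was -3.06 for Il4ra (log2, SE 0.27), which was lower in memory-type CD4 cells in all 3 libraries and higher in memory-type CD8 cells in all 3. It was -1.53 for Il21r (SE 0.21) and 2.04 for Il2rb (SE 0.22). Over 11 alternatives, among them another scaling, no replicate block, each library left out and Nkg7 left out of the memory list, the 3 differences ranged from -3.31 to -2.78, from -1.66 to -1.20 and from 1.80 to 2.57, and each was called in all 11.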

How the results depend on the processing

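Of 1074 member log2 folds under an alternative, 999 kept direction and call, 22 lost the call, 13 gained it and 40 changed sign. Folds with 3 UMIs or fewer in both arms were left out. None of the folds that changed sign was called as reported, and of the 40 changed values only Il4ra in lymphoid over myeloid classes with plain library totals (0.60) was called. The causes were not tested. Il4ra there was also 0.0187 with no filter on low counts and 0.0719 under the stricter gate. With plain library totals Il21r and Il7r in neutrophils were -0.29 and -0.054, Il2rg in CD4 memory-type cells -0.000698 (-0.0400 with no filter, -0.0135 with doublets kept) and Il7r in gamma-delta-type T cells 0.10 (0.13 with DESeq2's size factors, 0.18 with its Wald test). Il4ra in transitional-type B cells was 0.00103 with DESeq2's size factors and 4.55e-05 with its Wald test, which gave 1.10 for Il2rb in basophils. With Nkg7 left out Il2rg was -0.0672 in CD8 memory-type cells and 0.065 in the CD4 against CD8 difference, where Il7r was 0.0072 under the stricter gate.

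Over 1 library left out, the folds that changed sign ranged as follows. In transitional-type B cells Il21r ran from -0.15 to 0.0312 and Il4ra from -0.0277 to 0.00602, and in B-1 or marginal-zone-type cells Il9r from -1.07 to 0.0607. Il2rg ran from -0.0907 to 0.10 in CD4 and -0.00893 to 0.13 in CD8 memory-type cells and from -0.11 to 0.0159 in their difference, with Il7r from -0.11 to 0.00692. Il2ra in B over CD4 T cells ran from -0.68 to 0.35, Il21r and Il7r in CD8 over CD4 T cells from -0.0855 to 0.0123 and -0.0651 to 0.029, Il21r in Foxp3+ cells from -0.0113 to 0.22 and Il4ra in lymphoid over myeloid classes from -0.0669 to 0.18. In neutrophils Il15ra ran from -0.52 to 0.0263 and Il7r from -0.51 to 1.14, and in patrolling monocytes Il2rb from -1.26 to 6.43 and Il7r from -0.31 to 0.67. In basophils Il21r ran from -6.28 to 2.76 and Il2rb from -5.47 to 0.0713, in conventional DCs Il2rg from -0.14 to 0.52, and in gamma-delta-type T cells Il15ra from -0.12 to 0.42, Il7r from -0.14 to 0.0779 and Il9r from -2.76 to 3.65.

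Counts of genes called moved more. With DESeq2's Wald test they were 193 higher and 89 lower for transitional-type B cells, 384 lower for B-1 or marginal-zone-type, 313 and 138 for CD4 memory-type, 235 and 169 for CD8 memory-type, 16 and 17 for NK subsets, 321 lower for Foxp3+ cells, 442 and 67 for gamma-delta-type T cells and 145 lower for the CD4 against CD8 difference. With plain library totals they were 6881 and 2132 for lymphoid over myeloid, 1719 and 6428 for neutrophils, 1475 and 963 for conventional DCs and 80 lower for gamma-delta-type T cells (76 with DESeq2's size factors). Under the stricter gate they were 897 and 806 for patrolling monocytes, 2685 lower for neutrophils and 44 higher for NK subsets. With no replicate block transitional-type B cells had 139 lower, and the call of Il9r there was the only member call that the block changed.

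Leaving out 1 library moved the counts. Higher, then lower, they ran as follows, lowest without library 1 except in transitional-type B cells, lowest without library 3. Foxp3+ 283 to 714 and 179 to 513. CD8 over CD4 T 671 to 1007 and 538 to 857. NK over CD8 T 1611 to 2319 and 1717 to 2603. Patrolling monocytes 981 to 1599 and 1083 to 1811. Basophils 583 to 1349 and 1051 to 1898. Conventional DCs 428 to 808 and 796 to 1329. Gamma-delta-type T 41 to 142 and 55 to 88. CD4 memory-type 217 to 578 and 130 to 378. CD8 memory-type 376 to 670 and 301 to 566. The CD4 against CD8 difference 66 to 239 and 71 to 223. NK subsets 28 to 48 and 38 to 65. B-1 or marginal-zone-type 407 to 476 lower. Transitional-type B cells 139 to 314 and 68 to 216. Library 1 holds the most cells, and small classes rest on as few as 7 cells in a library, which limits their levels.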
